A study of Homo sapiens with 6 samples.

Results

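The BCL2 family of apoptosis regulators was examined in MOLM13 cells after treatment with the METTL3 degrader ZW27941. The family was represented by 10 genes, picked by symbol from the 56305 genes in the count data. The rule itself used no measured value, but the members were chosen with earlier results of these data known. They were 4 pro-survival genes (BCL2, BCL2L1, MCL1 and BCL2A1), 2 effector genes (BAX and BAK1) and 4 BH3-only genes (BID, BCL2L11, BBC3 and PMAIP1). MOLM13 is a human acute myeloid leukemia (AML) cell line that carries an internal tandem duplication of FLT3 and a KMT2A-MLLT3 fusion, and all libraries came from this line. Total RNA was taken after 24 h with the vehicle DMSO (3 libraries) or with 1 μM ZW27941 (3 libraries), a bivalent compound that brings the m6A methyltransferase METTL3 to the VHL ubiquitin ligase. No source used here says whether the 3 libraries of a group came from separate cultures, so p-values measure the spread between libraries, which may be technical.

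Proteins of this family decide whether the outer membrane of the mitochondrion stays intact. BAX and BAK1 are the effectors that form pores in it and release cytochrome c, the pro-survival proteins hold the effectors and BH3-only proteins in check, and BH3-only proteins carry stress signals by binding the pro-survival proteins or the effectors. AML cells often rely on BCL2 and MCL1 for survival, and venetoclax, which blocks BCL2, is used against the disease.

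Binding within the family runs through a short helix, the BH3 region. The RNA that encodes this region is shown because it is the feature that members of all 3 roles hold in common. The region is part of how the family and its BH3-only role are defined. The coding sequences of GENCODE v29 were searched for 12 codons that start with a codon for alanine, valine, isoleucine, leucine or cysteine, have a leucine codon 4 places later, then, again 4 places later, a glycine or alanine codon followed by one for aspartate, and end, a further 3 places on, with a codon for phenylalanine, isoleucine, leucine, methionine or valine. With 3 codons added on either side, each stretch has 54 bases, given from 5′ to 3′ on the coding strand. Capitals mark the codons for the leucine and for the glycine or alanine with its aspartate.
BCL2: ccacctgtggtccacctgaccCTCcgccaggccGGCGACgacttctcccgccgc
BCL2L1: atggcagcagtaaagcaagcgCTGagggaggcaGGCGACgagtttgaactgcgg
MCL1: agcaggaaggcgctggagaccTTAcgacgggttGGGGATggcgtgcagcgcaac
BAX: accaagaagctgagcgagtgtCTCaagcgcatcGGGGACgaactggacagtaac
BAK1: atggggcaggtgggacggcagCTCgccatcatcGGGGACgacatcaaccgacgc
BID: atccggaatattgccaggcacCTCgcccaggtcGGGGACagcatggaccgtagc
BCL2L11: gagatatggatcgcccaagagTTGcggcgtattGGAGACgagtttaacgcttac
BBC3: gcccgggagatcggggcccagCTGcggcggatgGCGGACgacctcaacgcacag
PMAIP1: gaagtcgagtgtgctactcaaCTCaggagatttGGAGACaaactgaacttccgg

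Each of these 9 genes had 1 match in the transcript shown, and each stretch lay inside a single coding exon. Over one transcript for each of 19530 protein-coding genes, 2.93% held the pattern. The pattern allows the cysteine codon that starts the PMAIP1 match and the alanine codon of BBC3. Since the region also helps define the family, matches in its members are not read as a result. BCL2A1 had no match in its 2 coding transcripts, which says only that these letters are not there. BBC3 is the member with an alanine codon where the others have glycine. The leucine in capitals was codon 97 of the 239 of BCL2, codon 213 of the 350 of MCL1 and codon 29 of the 54 of PMAIP1, the shortest coding sequence. Several genes also have coding transcripts without it, with a match in 7 of the 14 of BCL2L11, in 4 of the 11 of BID and in 2 of the 4 of BBC3. The gene counts used here do not separate transcripts, so a level or change of these genes covers forms with and without the BH3 region.

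The libraries held 143454176 to 178744976 counts on genes, and BCL2A1, the member with the fewest, had at least 1184 in each of them. ZW27941 replicate 3 stood apart from its group. In pairwise comparisons of counts within a group, the chi-square statistic per degree of freedom was 7.78 and 11.5 for the pairs with this library and between 4.33 and 5.13 for the others. Of the reads tallied, 18.1% did not align in it, against 15.5% to 17.0% in the other libraries. The labelled cell type was checked against its markers. Of 10 myeloid leukemia markers, 9 (FLT3, CD33, LYZ and MPO among them) were above 1 CPM (counts scaled to a common library size, with TMM factors) in every library, and ANPEP lay between 0.536 and 0.948 CPM. The summed level of these 10 genes was 2605 to 2668 CPM in DMSO and 2863 to 2927 CPM on ZW27941. The sum of 4 markers each was at most 0.332 CPM for T cells, 2.51 CPM for B cells, 2.02 CPM for fibroblasts and 0.0199 CPM for erythroid cells, with HBA1 and HBB at 0. For epithelial markers it was 20.1 to 20.4 CPM in DMSO and 17.2 to 18.4 CPM on ZW27941, carried by KRT8 and KRT18. The part of these shifts in the results below was not tested.

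All 10 members passed the expression filter and were among the 20399 genes tested. A gene was called where its p from the quasi-likelihood test of edgeR, adjusted by Benjamini-Hochberg over all genes (the edgeR adjusted p from here on), was under 0.05. MCL1 and BID were higher on ZW27941, BAX, BBC3 and PMAIP1 were lower, and the other 5 were not called. The libraries of the groups did not overlap for the same 5 genes, 2 higher and 3 lower, against 41.6% of all genes tested (21.7% higher and 19.9% lower). Of all genes tested, 16.3% were called higher and 13.8% lower, 30.1% in all, so 45.8% of the called genes were lower. Scaled by the upper quartile instead of TMM, 57.9% were lower. With 10 members, nothing particular to them is read from these counts. Their median log2 fold change was −0.0029, against −0.0019 for all genes tested, and the median of its size was 0.090 for the members and 0.12 for all genes. In bulk RNA, a lower level per cell cannot be told apart from fewer cells that carry the transcript.

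**Figure D1:**
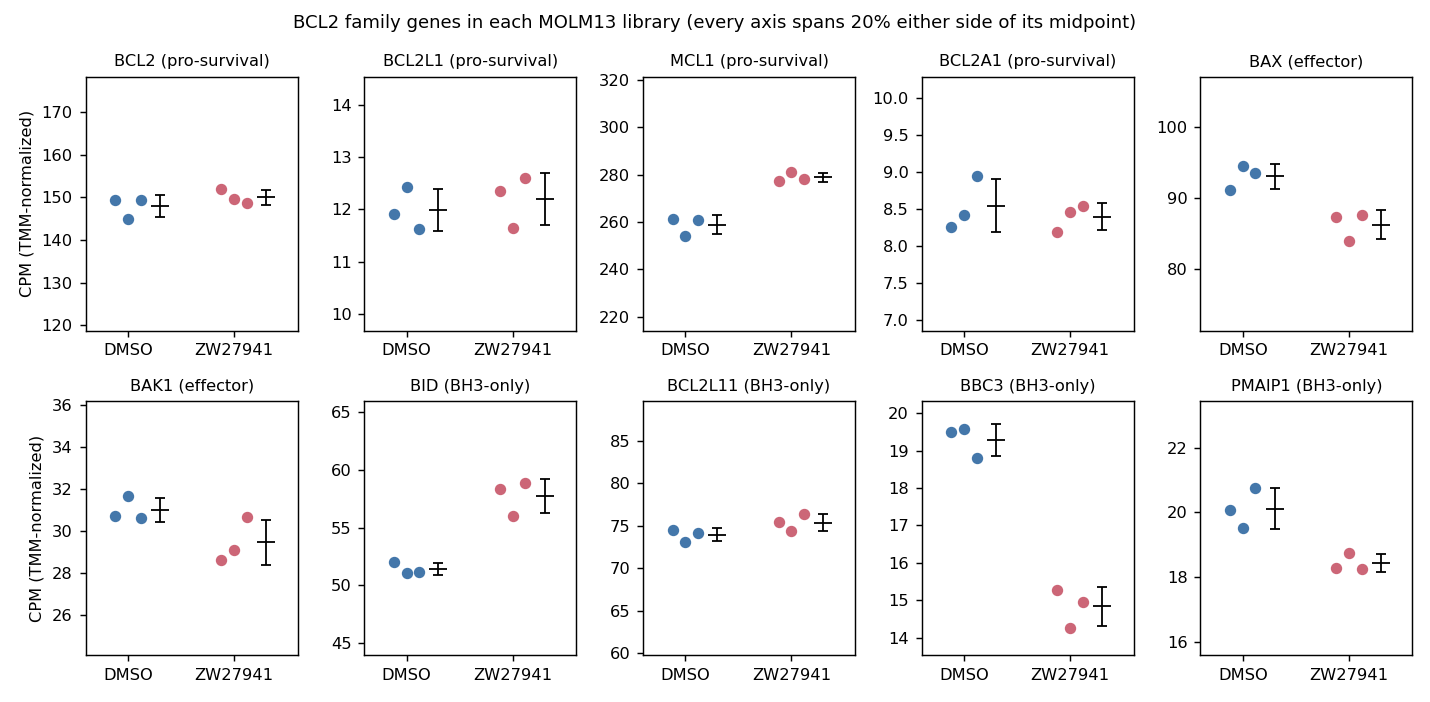
TMM-normalized CPM of each gene (y axis, a linear axis that does not start at 0 and spans 20% on either side of its midpoint) in the 3 DMSO and 3 ZW27941 libraries (points), with the mean and SD of each group beside them. The groups lie apart for MCL1, BAX, BID, BBC3 and PMAIP1 and overlap for BCL2, BCL2L1, BCL2A1, BAK1 and BCL2L11.

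Among the pro-survival genes, BCL2 is the target of venetoclax and holds BH3-only proteins at the mitochondrion. It lies at chr18:63123346-63320128 on the minus strand (GRCh38, GENCODE v29), and its BH3-coding stretch at chr18:63318346-63318399. BCL2 was at 149, 145 and 149 CPM in the DMSO libraries and at 152, 149.5 and 149 CPM in the ZW27941 libraries. The groups overlapped. Its log2 fold change was 0.020 (standard error, SE, 0.024), with a 95% interval of the change from −2.07% to 5.05% (edgeR adjusted p = 0.580). With between 21408 and 27383 counts per library, BCL2 was among the deeply counted members, and the interval is set by the spread between libraries. The study also measured BCL2 mRNA by RT-qPCR in MOLM13 cells, in values that are not part of the count data and were not analysed here.

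MCL1 encodes a short-lived pro-survival protein that binds BAK1, BCL2L11 and PMAIP1. The gene spans chr1:150574551-150579738 on the minus strand, and the stretch printed above lies at chr1:150578862-150578915. MCL1 was at 261, 254 and 261 CPM in DMSO and at 277, 281 and 278 CPM on ZW27941. All ZW27941 libraries were above all DMSO libraries, with means of 258.8 ± 4.003 and 278.8 ± 1.99 CPM (SD, n = 3 each). This was a rise of 7.74%, a log2 fold change of 0.11 (SE 0.024, edgeR adjusted p = 0.00146). MCL1 was the only pro-survival member of the 4 that was called.

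BCL2L1 encodes BCL-XL, a further pro-survival protein. It was at 11.9, 12.4 and 11.6 CPM in DMSO and at 12.4, 11.7 and 12.6 CPM on ZW27941, so the groups overlapped. Its log2 fold change was 0.026, with a 95% interval from −0.067 to 0.12. On its locus, chr20:31664452-31723989 (minus strand), 43% of the exonic bases are shared with ABALON, an antisense gene annotated on the opposite strand. ABALON had 2 to 11 counts per library. Whether counting used strand is not given in the sources used here, and reads on shared bases may have been set aside as ambiguous, so the level of BCL2L1 is uncertain.

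BCL2A1, a pro-survival relative that NF-kB is known to induce in myeloid cells, lies at chr15:79960889-79971446 on the minus strand. It was at 8.26, 8.42 and 8.95 CPM in DMSO and at 8.19, 8.46 and 8.53 CPM on ZW27941. The groups overlapped, and the log2 fold change was −0.026 (95% interval −0.14 to 0.084). Its sign rested on DMSO replicate 3, without which the value was 0.0091.

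Both effector genes had lower means on ZW27941, and BAX was called. BAX rests in the cytosol and inserts into the mitochondrial membrane when activated. Its gene spans chr19:48954815-48961798 on the plus strand, with the BH3-coding stretch at chr19:48955766-48955819. BAX was at 91.1, 94.4 and 93.5 CPM in DMSO and at 87.3, 83.9 and 87.5 CPM on ZW27941. The groups did not overlap. The means were 93.0 ± 1.74 and 86.2 ± 2.05 CPM (SD, n = 3 each), a log2 fold change of −0.11 (SE 0.026, edgeR adjusted p = 0.00322).

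BAK1, the effector that sits in the mitochondrial membrane from the start, was at 30.7, 31.7 and 30.6 CPM in DMSO and at 28.6, 29.1 and 30.7 CPM on ZW27941. The groups overlapped through ZW27941 replicate 3. The log2 fold change was −0.073 (SE 0.032), with an edgeR p of 0.0343 before and 0.0948 after adjustment. Without ZW27941 replicate 3 it was −0.11 (edgeR adjusted p = 0.0163), past the threshold. With upper quartile normalization it was −0.097 (edgeR adjusted p = 0.0272). BAK1 lies at chr6:33572547-33580293 on the minus strand, and a processed copy, BAK1P1, had 59 to 87 counts per library.

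Of the BH3-only genes, BID rose and BBC3 and PMAIP1 fell. BID links death receptors to the mitochondrion once caspase-8 has cleaved it into its active form. Its gene lies at chr22:17734138-17774770 and its BH3-coding stretch at chr22:17739412-17739465, both on the minus strand. BID was at 52.0, 51.1 and 51.2 CPM in DMSO and at 58.4, 56.0 and 58.8 CPM on ZW27941. All 3 ZW27941 libraries were higher than every DMSO library. The rise was 12.3%, a log2 fold change of 0.17 (SE 0.028, edgeR adjusted p = 7.97e-05), the largest rise among the 10 members.

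BBC3 encodes PUMA, a BH3-only protein that binds every major pro-survival protein and is a textbook target of p53. The gene spans chr19:47220822-47232766 on the minus strand, and its BH3-coding stretch, with the alanine codon noted above, lies at chr19:47226576-47226629. BBC3 was at 19.5, 19.6 and 18.8 CPM in DMSO and at 15.3, 14.3 and 14.95 CPM on ZW27941. The lowest DMSO library was well above the highest ZW27941 library. The means were 19.3 ± 0.428 and 14.8 ± 0.517 CPM (SD, n = 3 each). BBC3 fell by 23.1%, a log2 fold change of −0.38 (SE 0.037, 95% interval −0.46 to −0.30, edgeR adjusted p = 1.33e-07). It was the largest change among the 10 members and the only one called with an absolute log2 fold change over 0.25, which 9.10% of all genes tested reached.

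PMAIP1 encodes NOXA, which binds MCL1 and BCL2A1 and speeds the breakdown of MCL1. Its gene lies at chr18:59899948-59904306 on the plus strand, on the same chromosome as BCL2, with the BH3-coding stretch at chr18:59902652-59902705. PMAIP1 was at 20.1, 19.5 and 20.8 CPM in DMSO and at 18.3, 18.8 and 18.3 CPM on ZW27941. The groups did not overlap. The log2 fold change was −0.13 (SE 0.035, edgeR adjusted p = 0.00824). Without DMSO replicate 3, the library with the highest level, it was −0.10 and no longer passed (edgeR adjusted p = 0.0673).

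BCL2L11 encodes BIM, which binds all pro-survival proteins and can activate BAX directly. The gene is at chr2:111119378-111168447 on the plus strand. BCL2L11 was at 74.5, 73.1 and 74.2 CPM in DMSO and at 75.4, 74.4 and 76.4 CPM on ZW27941. One ZW27941 library lay inside the DMSO range. The log2 fold change was 0.028, with a 95% interval from −0.025 to 0.081 (edgeR adjusted p = 0.445). On the opposite strand, exons of MIR4435-2HG cover 10.9% of its exonic bases, and that gene had 3414 to 4338 counts per library, so part of the reads of either gene may be uncertain.

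**Figure D2:**
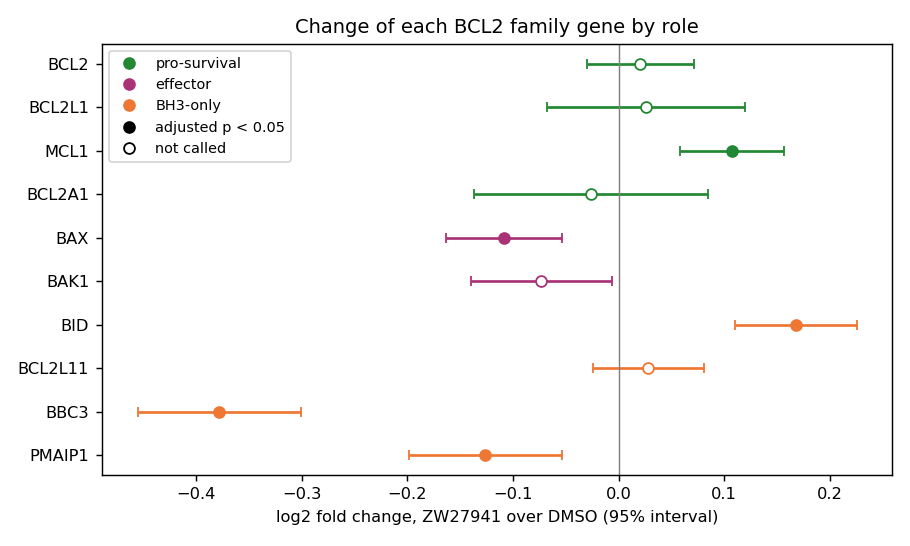
Log2 fold change of each gene, ZW27941 over DMSO (x axis), with its 95% interval from edgeR's quasi-likelihood fit, coloured by role. Filled points passed an adjusted p of 0.05: MCL1 (0.11) and BID (0.17) to the right of 0, BAX (−0.11), PMAIP1 (−0.13) and BBC3 (−0.38) to the left.

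By role, 1 of 4 pro-survival genes was higher and 0 were lower, with a median log2 fold change of 0.023. Of the 2 effectors, 0 were higher and 1 was lower, with a median of −0.091. Of the 4 BH3-only genes, 1 was higher and 2 were lower, with a median of −0.049 and a range from −0.38 to 0.17. The Wald test of DESeq2 and edgeR's exact and likelihood ratio tests gave the same counts for each role. Without adjustment, at an edgeR p under 0.05, the effectors had 0 higher and 2 lower, and the other roles had the counts above. These medians cover so few genes that they are given as a description beside the −0.0019 of all genes tested.

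To set levels side by side, CPM were divided by the length of the merged exons of each gene in GENCODE v29, in kilobases. On this scale MCL1 was the highest member, at 59.2 ± 0.916 CPM per kilobase in DMSO and 63.8 ± 0.456 on ZW27941 (SD, n = 3 each). BAX followed at 35.9 ± 0.673 and 33.3 ± 0.794. BAK1, BCL2, BID and BCL2L11 lay close together, at 14.0, 12.6, 11.6 and 11.1 CPM per kilobase in DMSO. PMAIP1 was at 9.00, BCL2A1 at 7.84 and BBC3 at 6.07 CPM per kilobase in DMSO, and BCL2L1 was the lowest at 3.62. In the DMSO libraries no neighbours in this order overlapped. On ZW27941, the libraries of BID (12.6 to 13.2 CPM per kilobase) overlapped those of BAK1 (12.95 to 13.88) and those of BCL2 (12.63 to 12.91), while BAK1 and BCL2 did not overlap each other. The levels and their order depend on the length used. With the longest transcript of each gene in place of its merged exons, 5 of the 10 members kept their rank, MCL1, BAX and BCL2L1 among them. Over all 6 libraries, BAX then had a mean of 66.0 CPM per kilobase, close to MCL1 at 68.4. BID was at 21.9, BCL2 at 19.96, BCL2L11 at 14.3 and BAK1 at 13.7 CPM per kilobase on that scale.

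**Figure D3:**
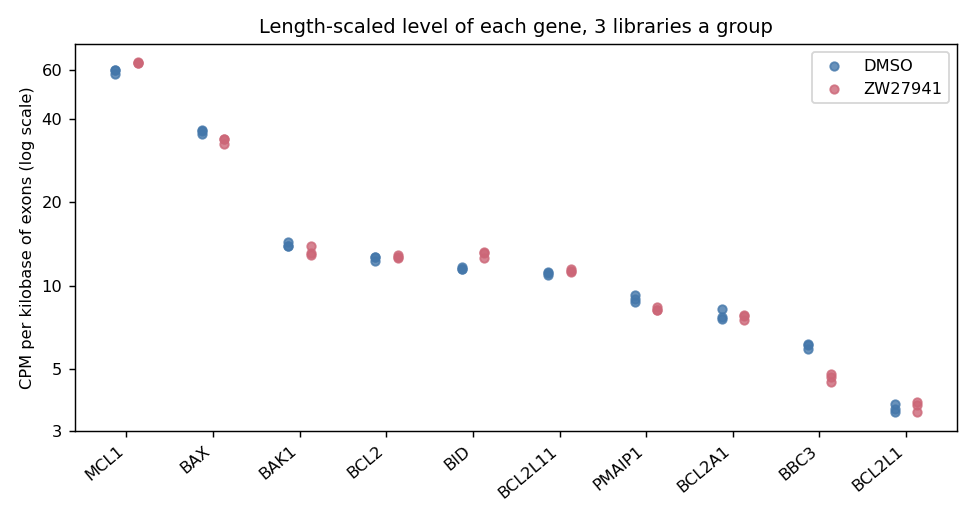
Length-scaled level of each gene (CPM per kilobase of merged exons, log scale) in 3 DMSO and 3 ZW27941 libraries (points), ordered by the mean over all libraries. MCL1, near 60, and BAX, near 35, stand above a middle group from 11 to 14, and BCL2L1 lies lowest, between 3.51 and 3.80.

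Summed over the 10 genes, the length-scaled level was 170.9 ± 0.935 CPM per kilobase in DMSO and 171.8 ± 1.34 on ZW27941 (SD, n = 3 each), so the total differed by less than the spread between libraries. Its make-up differed between the groups. Pro-survival genes made up 48.2% to 49.0% of the sum in DMSO and 50.7% to 51.8% on ZW27941, and effectors 28.8% to 29.9% and 26.7% to 27.6%. The share of BH3-only genes was 21.95% to 22.25% and 21.5% to 21.8%. For each role the ranges did not overlap, and for BH3-only genes the gap ran only from 21.8% to 21.95%. Of all single genes tested, 41.6% also did not overlap between the groups. The 3 shares add up to the whole, so they are not independent, and they were not tested. They rest on the merged exon lengths and were not computed with other lengths. MCL1 carried most of the pro-survival share, with 34.6% ± 0.421 of the whole sum in DMSO and 37.1% ± 0.509 on ZW27941 (SD, n = 3 each). BAX carried most of the effector share, with 21.0% ± 0.420 in DMSO and 19.4% ± 0.342 on ZW27941 (SD, n = 3 each). The shares of these roles thus largely restate the changes of MCL1 and BAX.

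Some members are often read as pairs, since BAX is held by BCL2, and BBC3 and PMAIP1 bind MCL1. The ratio of BAX to BCL2 transcript per kilobase was 2.77, 2.96 and 2.85 in the DMSO libraries and 2.61, 2.55 and 2.68 in the ZW27941 libraries, with no overlap. For BBC3 over MCL1 it was 0.103 ± 0.00342 in DMSO and 0.0731 ± 0.00306 on ZW27941 (SD, n = 3 each). For PMAIP1 over MCL1 it was 0.152 ± 0.00313 and 0.129 ± 0.00109 (SD, n = 3 each), again with no overlap. By contrast, BCL2L11 over BCL2 was 0.883 ± 0.00658 and 0.888 ± 0.0172 (SD, n = 3 each), with overlapping libraries. These ratios repeat the changes of the single genes and were not tested on their own. The pairs leave out BID, the BH3-only gene that rose. Its rise of 12.3% was larger than the change of MCL1 (7.74%) or of BCL2 (1.42%).

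The 10 members were set beside 88 other genes of apoptosis in 8 lists, of which 85 passed the filter. The lists were also chosen with earlier results of these data known, so their counts are a description. Over the lists, 17 genes (20%) were higher and 22 (25.9%) were lower by the edgeR adjusted p, against 16.3% and 13.8% of all genes tested, and the median log2 fold change was 0.012. Among further BH3-containing genes, 1 of 7 was higher and 4 were lower, with a median of −0.089. BMF, a BH3-only protein tied to the cytoskeleton, was at 65.6, 69.1 and 68.7 CPM in DMSO and at 57.3, 58.5 and 58.8 CPM on ZW27941, with no overlap. Its log2 fold change was −0.22 (SE 0.028, edgeR adjusted p = 3.13e-06). BNIP3, which serves in the removal of mitochondria, had a log2 fold change of −0.15 and BECN1, an autophagy protein with a BH3 region, of 0.083. Without DMSO replicate 2 or 3 or ZW27941 replicate 3, or with upper quartile scaling, 0 of these genes were called higher by edgeR, BECN1 included, and without DMSO replicate 2 or 3 or ZW27941 replicate 1, 3 were called lower. The other two lower genes were HRK (−0.29) and BNIP3L (−0.089), named after their values were seen. Of 5 tested multi-domain relatives, 0 were called by edgeR or DESeq2, and 1 (BCL2L15, under 1 CPM in every library) had an unadjusted edgeR p under 0.05.

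Among 13 genes of the apoptosome, caspases and mitochondrial factors, 4 were higher and 2 were lower, with a median log2 fold change of 0.0023. VDAC2, a mitochondrial channel that binds BAK1 and has processed copies in the genome, was at 165, 168 and 171 CPM in DMSO and at 139, 143 and 149 CPM on ZW27941, without overlap. Its log2 fold change was −0.23 (edgeR adjusted p = 1.70e-06). DIABLO, which relieves caspases of their inhibitors, had a log2 fold change of −0.22 and lay close to the threshold (edgeR adjusted p = 0.0465). The number of genes called lower in this list was 1 without DMSO replicate 1 or 2 or ZW27941 replicate 2, and also with library size scaling alone, with edgeR's exact or likelihood ratio test and with no expression filter. It was 3 with upper quartile scaling. ENDOG, a mitochondrial nuclease, rose by 0.29 and DFFA, the inhibitor of the caspase-activated nuclease, by 0.15 on the log2 scale. CASP6, an executioner caspase named after its value was seen, rose by 0.29. Of the 7 inhibitor of apoptosis proteins, 3 were higher and 0 were lower (also 0 by DESeq2 and before adjustment in edgeR), with a median of 0.10. BIRC2, which ubiquitinates RIPK1, was at 39.3, 38.1 and 40.6 CPM in DMSO and at 48.7, 48.1 and 48.5 CPM on ZW27941. Its log2 fold change was 0.30 (SE 0.029, edgeR adjusted p = 1.14e-07). BIRC5, also known as survivin, had one of 0.15, and NAIP, which has near-identical copies and is uncertain for that reason, one of 0.22 with overlapping libraries (named after its values were seen). With upper quartile scaling, or without any one of DMSO replicates 2 and 3 and ZW27941 replicates 2 and 3, 2 genes of this list were called higher.

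Of 11 tested death receptor genes, 4 were higher and 1 was lower, with a median log2 fold change of 0.019. CFLAR, the inhibitor of caspase-8, rose by 0.21 on the log2 scale (from 112 ± 0.623 to 129.5 ± 6.42 CPM, SD, n = 3 each) and RIPK1 by 0.16. TNFRSF10B, a receptor for the ligand TRAIL, had a log2 fold change of −0.091. TRADD (0.11) and TNFSF10 (0.18) were the other genes that rose, named after their values were seen. With DESeq2, with upper quartile scaling and with any single library but DMSO replicate 2 left out, 3 genes of this list were called higher, and with library size scaling alone 5 were. Of 8 partners and degraders of BCL2 family proteins, 2 were higher and 1 was lower. These were DYNLL1 (0.17) and DYNLL2 (0.086), light chains that hold BCL2L11 and BMF, and TPT1 (−0.10), which binds MCL1 and has processed copies. TPT1 was not called without DMSO replicate 1 or 3 or ZW27941 replicate 1, and without DMSO replicate 3 or ZW27941 replicate 2, 1 gene of this list was called higher. With upper quartile scaling, 1 was higher and 2 were lower. Among 16 transcription factors known to drive members of the family, 0 were higher and 3 were lower. DESeq2 also called 0 higher, and before adjustment 4 had an edgeR p under 0.05 with a higher mean (MYB, RELB, TP73 and CREB1, named after their values were seen, with log2 fold changes from 0.056 to 0.091). Without ZW27941 replicate 3, 3 genes of this list were called higher, and without DMSO replicate 1, or with library size scaling alone, 1 gene was. DDIT3, a stress factor known as CHOP, was at 27.9, 32.0 and 31.9 CPM in DMSO and at 17.4, 18.7 and 18.8 CPM on ZW27941, with no overlap. Its log2 fold change was −0.74 (SE 0.044, edgeR adjusted p = 6.03e-11). ATF4, which acts ahead of it, had a log2 fold change of −0.20 and NFKB2, named after its value was seen, one of −0.13.

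Of 18 genes for p53 and its textbook targets, 3 were higher and 11 were lower, with a median log2 fold change of −0.10. BBC3, PMAIP1 and BAX, the members called lower, are textbook targets of p53 as well and were kept out of this list as members. The list is not complete. The other members, BID among them, and the genes of the other lists were not sorted by p53 and may hold further targets. CDKN1A, the cell cycle inhibitor p21, was at 316, 333 and 330 CPM in DMSO and at 278, 268 and 275 CPM on ZW27941. The groups did not overlap, and the log2 fold change was −0.25 (SE 0.026, edgeR adjusted p = 2.26e-07). SESN2, a stress sensor, was at 23.3, 24.1 and 23.3 CPM in DMSO and at 18.5, 18.5 and 18.6 CPM on ZW27941. TIGAR, a regulator of glycolysis, rose by 0.33 and TP53INP1 by 0.23 on the log2 scale. TP53I3, named after its value was seen, rose by 0.46.

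**Figure D4:**
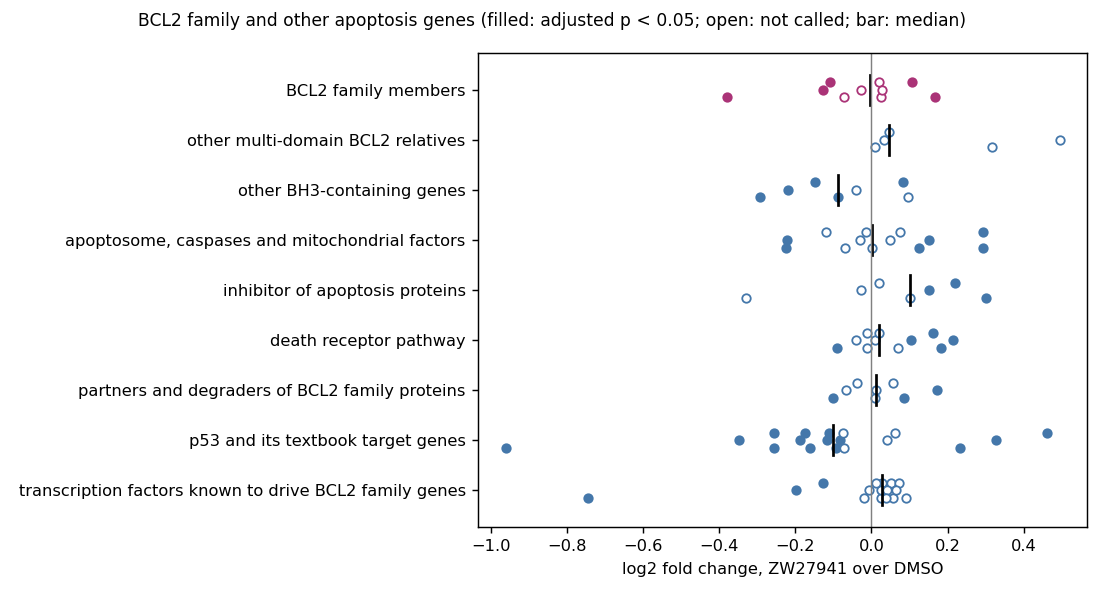
Log2 fold change, ZW27941 over DMSO (x axis), of the 10 BCL2 family genes (purple) and of the tested genes of 8 other lists (blue), filled where the adjusted p of edgeR's quasi-likelihood test was under 0.05, with the median of each list as a bar. The medians of further BH3-containing genes (−0.089) and of p53 and its targets (−0.10) lie left of 0, and that of the inhibitor of apoptosis proteins (0.10) lies right of it.

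**Figure D5:**
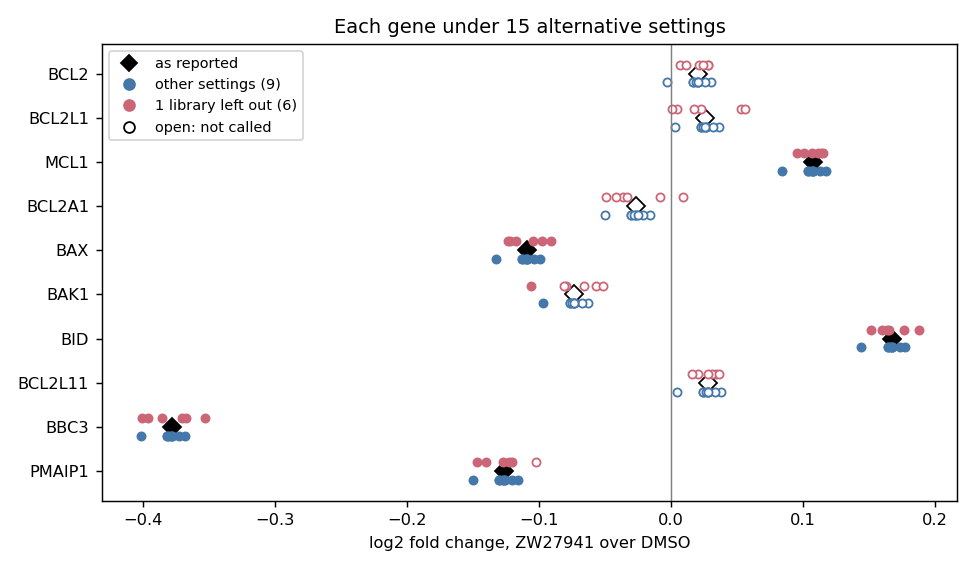
Log2 fold change of each gene (x axis) as reported (diamonds), under 9 other normalizations, tests, filters or designs (blue) and with each of 6 libraries left out (red). Filled symbols passed an adjusted p of 0.05. MCL1, BAX, BID and BBC3 are filled throughout, PMAIP1 is unfilled for 1 alternative, BAK1 is filled for 2 alternatives, and BCL2, BCL2L1, BCL2A1 and BCL2L11 are unfilled throughout.

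Across the 15 alternatives in the plot of settings, the log2 fold change of BBC3 ran from −0.40 to −0.35, that of BID from 0.14 to 0.19, that of MCL1 from 0.084 to 0.12 and that of BAX from −0.13 to −0.091. BCL2 ran from −0.0031 to 0.030, with an adjusted p of at least 0.394 in each from the tools used (edgeR and DESeq2).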

How the data were processed

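The authors deposited raw read counts per gene symbol for 6 libraries. The submitters' processing notes name HISAT2, SAMtools 1.19.2, HTSeq 2.0.3 and the build hg38. The annotation and strand setting are not given in the sources used here. More reads were tallied per library than the labels state as raw reads, and the reason was not tested. HTSeq's 5 tallies of reads given to no gene (37.4% to 39.8% of a library) were left out.

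The analysis used edgeR 4.0.16 in R 4.3.3 (TMM, filterByExpr, quasi-likelihood test, Benjamini-Hochberg adjustment over 20399 genes, threshold 0.05), and DESeq2 1.42.0 as an alternative. Standard errors are the log2 fold change over the root of the F statistic. Positions, lengths and sequences came from GENCODE v29 (GRCh38), not necessarily the authors' annotation. On simulated counts, 186 of 200 changed genes were recovered, with 13 false calls over 20049 genes.

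The members and lists were chosen with earlier results of these data known. Named were all members, in each other list up to 2 called genes per direction with the lowest p, and the 3 genes most correlated with BCL2. RT-qPCR and protein data were not analysed here. One gene of the other lists is counted but not reported by name here.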

Additional observations from a re-analysis of the deposited data

How the results depend on the processing

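When a call also needed a log2 fold change beyond 0.25 in size, 0 members were higher and 1 was lower (BBC3), and of all genes 979 were higher and 877 lower. At an edgeR adjusted p under 0.01, 2280 of all genes were higher and 1725 lower, and the members called stayed at 2 higher and 3 lower. By longest transcript, 5 members kept their rank. BCL2 changed sign with upper quartile normalization (−0.0031) and BCL2A1 without DMSO replicate 3 (0.0091). With single libraries left out in turn, BCL2A1 ran from −0.049 to 0.0091 and BCL2 from 0.0066 to 0.028. Where this leaves 2 libraries in a group, the spread is shared with the other group.

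The deviations of same-numbered libraries of the 2 groups had correlations of 0.029, −0.057 and 0.051 over genes. Pairs with different numbers ran from −0.095 to 0.066. With so few libraries, these values cannot tell whether same-numbered libraries share more than a number. With the replicate number as a block, the members called were 2 higher and 3 lower, and of all genes 3243 were higher and 2767 lower, against 3333 and 2816 without the block. Upper quartile scaling moved the median log2 fold change of all genes by −0.023, and library size scaling alone moved it by 0.010. The first shift is larger in size than the log2 fold change of BCL2 (0.020). With upper quartile scaling, 2644 of all genes were called higher and 3643 lower. For BCL2L1 and BCL2A1, the members with the fewest counts, the standard errors of 0.045 and 0.053 limit which changes can be seen.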

Other observations

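Over the 6 libraries, the genes whose log2 CPM followed that of BCL2 most closely were B3GNT2 (Pearson r = 0.998), XPO1 (0.992) and CUL1 (0.987), among 12237 genes compared. With so few libraries that share depth and treatment, these values are a description, and the 3 genes had log2 fold changes of 0.031, 0.018 and 0.044.

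METTL3 places m6A mainly in a sequence context that includes the letters GGACT (U for T in the RNA). In the principal coding transcript of each gene, read on the sense strand, 9 of the 10 members held more of these letters per kilobase than the median of 0.942 over 18845 protein-coding genes, 87.8% of which held them at least 1 time. Among the called members, the values were 3.81 per kilobase for BBC3, 2.52 for BAX, 2.00 for BID, 1.78 for MCL1 and 1.03 for PMAIP1. Among the members not called, they were 2.34 for BAK1, 2.30 for BCL2L1, 1.97 for BCL2L11, 0.968 for BCL2A1 and 0.623 for BCL2, the member below the median. The ranges of called and uncalled members overlapped. These values rest on few matches, from 1 in BCL2A1 to 7 in MCL1 and BBC3, with 2 each in BAX, PMAIP1 and BCL2. A single match placed BCL2A1 above the median. BCL2 was read on a transcript of 3209 bases, while its longest has 7461, so its value depends on the transcript chosen. A match is not evidence that a site is methylated, and no methylation was measured in these libraries.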
